A study of Homo sapiens with 16 samples.

Results

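The 9 genes described here encode 5 laminin chains (LAMA3, LAMA5, LAMB1, LAMB3 and LAMC1) and 4 subunits of the integrins that bind laminin (ITGA3, ITGA6, ITGB1 and ITGB4). They were taken as a named list and found by their Ensembl identifiers among the 60676 genes of the count tables. All 9 had enough reads to be among the 21810 genes tested. RNA was sequenced from LNCaP, a human prostate adenocarcinoma line that depends on androgen signalling. Unmodified cells (WT) and cells with a CRISPR-Cas9 double knockout of RB and p53 (DKO) were kept for 6 days with 50 µM enzalutamide (EZ), an antagonist of the androgen receptor, or with the same volume of its solvent DMSO. This gave 4 groups of 4 libraries, named WT DMSO, WT EZ, DKO DMSO and DKO EZ, all grown in serum-containing RPMI medium. The labels do not say whether the knockout line is 1 clone or a pool, nor whether each replicate is its own culture. The p-values therefore measure only the spread between these libraries, which may be technical.

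A laminin is a trimer of an alpha, a beta and a gamma chain that is assembled inside the cell, secreted, and polymerised into the basement membrane under epithelia. Cells hold on to it through integrins, each a pair of an alpha and a beta subunit: ITGA3 with ITGB1, ITGA6 with ITGB1, and ITGA6 with ITGB4, the last of which anchors keratin filaments at hemidesmosomes. In normal prostate the basal cells sit on a laminin that contains the LAMA3 and LAMB3 chains, whereas trimers with LAMA5 and LAMC1 are more widely distributed.

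The libraries held 11823438 to 47678648 counts. Levels are given as CPM, counts scaled to the size of the library after TMM scaling. RB1 stood at 95.6 to 128 CPM in WT and 9.04 to 13.4 CPM in DKO libraries, with no overlap. Some libraries stood apart on RN7SL1 and MKI67. RN7SL1, a structural RNA, stood at 2201 to 6207 CPM of all counts in 6 libraries (replicate 1 of both WT groups, replicates 1 and 2 of both DKO groups) and at 481 to 1166 in the other 10. Each set was also fitted alone. The 6 libraries high in RN7SL1 hold 1 of each WT group and 2 of each DKO group, so there a lone WT library is assumed to vary like the DKO pairs. MKI67, a proliferation marker, was under 50% of its group's median in WT DMSO replicate 4, WT EZ replicate 1, DKO DMSO replicate 4 and DKO EZ replicate 1. All 10 luminal prostate markers exceeded 1 CPM on average in every group, but their sum was 3469 to 5336 CPM in WT and 2422 to 3459 CPM in DKO libraries. With DMSO, TMPRSS2 averaged 368 CPM in WT and 39.6 in DKO, KLK2 102 and 12.7, and KLK3 46.2 and 4.25. The 7 basal epithelial markers summed to 0.836 to 2.36 CPM in WT and 1.45 to 6.76 CPM in DKO libraries. Most of the highest DKO DMSO sum was KRT15, at 5.98 CPM in a single library. In DKO EZ most of the highest sum was COL17A1, at 4.31 CPM in replicate 1. TP63 and KRT5 averaged at most 0.0361 and 0.0483 CPM in any group. The 10 fibroblast and smooth muscle markers summed to 20.1 to 24.9 CPM in WT and 32.3 to 56.4 CPM in DKO libraries, with COL1A1 the largest part and 3 to 5 of the 10 above 1 CPM. The part of these sets and markers in the results below was not tested beyond the fits without those libraries.

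To show what lies upstream of the laminin genes that differed, the 250 bases before the RefSeq start site are printed for 4 chains (GRCh38.p14), 5′ to 3′ on the gene's strand, without the bases that GENCODE v29 places in an exon. Both strands were searched for AP-1 sites (TGANTCA), the GC box of the Sp and KLF factors (GGGCGG) and sites of E2F, the partner of RB (TTTNNCGC). Capitals mark the matches. LAMA3 fell and LAMB3 and LAMB1 rose in the knockout, and LAMA5 and LAMB1 rose with the drug.
LAMA3, chr18:23872770-23872839, plus strand: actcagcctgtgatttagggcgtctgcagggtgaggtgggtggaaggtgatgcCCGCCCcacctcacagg
LAMB3, chr1:209652467-209652675, minus strand: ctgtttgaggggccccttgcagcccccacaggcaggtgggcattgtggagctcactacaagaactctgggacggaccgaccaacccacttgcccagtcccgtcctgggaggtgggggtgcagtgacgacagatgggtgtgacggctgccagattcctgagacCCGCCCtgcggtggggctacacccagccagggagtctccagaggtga
LAMB1, chr7:108003256-108003411, minus strand: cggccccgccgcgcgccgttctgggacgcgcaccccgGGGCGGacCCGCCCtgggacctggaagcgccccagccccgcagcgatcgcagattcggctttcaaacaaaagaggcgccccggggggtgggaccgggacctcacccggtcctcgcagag
LAMA5, chr20:62367313-62367562, minus strand: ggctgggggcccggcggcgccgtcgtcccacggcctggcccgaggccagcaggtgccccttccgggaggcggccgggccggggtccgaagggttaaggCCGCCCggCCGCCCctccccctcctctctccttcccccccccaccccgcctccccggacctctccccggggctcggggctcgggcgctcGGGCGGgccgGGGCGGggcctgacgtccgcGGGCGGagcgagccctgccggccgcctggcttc
The LAMA3 window is that of an internal start of the gene, which begins at 23689443 on chromosome 18. The counts do not separate transcripts from the 2 starts. Outside the exons, the LAMA3 and LAMB3 windows each held 1 GC box, the LAMB1 window 2 and the LAMA5 window 5. The whole LAMA3 window, with its exon bases, also held 2 AP-1 matches. The LAMB3 window is the most upstream of 3 in the table. Of all 35116 promoter windows of 250 bases, 6.57% held the AP-1 letters, 42.6% the GC box and 5.92% the E2F letters. No E2F match lay in any of the 4 whole windows. The androgen receptor half-site (AGAACA), held by 12.4% of windows, was not matched in them either. Of the other LAMB3 windows in the table, 1 held a match to this half-site and 1 an AP-1 match. A match describes the letters and is not evidence of binding. Windows of 7 of the 9 genes were in the table, and ITGA3 and ITGB4 are named only.

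Both the double knockout and the drug moved genes of the list. The 9 genes and the further gene lists below were chosen with earlier results of these data known. Their counts beside those of all genes are therefore a description and no test of an excess. In DMSO, 4 of the 9 differed between genotypes (edgeR quasi-likelihood test, Benjamini-Hochberg adjusted p under 0.05), where 18.6% of all tested genes did. LAMB3, LAMB1 and ITGB4 were higher in DKO (8.91% of all genes were) and LAMA3 was lower (9.7% were). Under EZ the same 4 and ITGA6 differed, 5 of 9, where 20.7% of all genes did, with 4 of them higher (9.29% of all genes) and LAMA3 lower (11.4%). The drug raised LAMA5, LAMB1 and ITGA3 in WT cells, 3 of 9, where 3.32% of all genes were called and 2.25% were higher. In DKO cells it raised LAMA5 and LAMB1, 2 of 9, where 1.48% of all genes were called and 1.03% were higher. It lowered none of the 9 in either genotype. EZ and DMSO libraries did not overlap for 3 members in WT (9.59% of all genes) and 6 in DKO (9.61%), and DKO and WT libraries did not for 5 members in DMSO (21.7%) and 5 in EZ (24%). The median log2 difference of the 9 genes was 0.375 for the drug in WT and 0.545 in DKO, beside -0.029 and 0.0057 over all tested genes. It was 0.172 for the knockout in DMSO and 0.164 in EZ, beside -0.06 and -0.013. Within a genotype, same-numbered libraries deviated together, so the drug was also fitted with a block for the replicate number. With this block ITGB4 joined the calls in WT (4 of 9, background 12.1%, higher 7.67%) and LAMB3, LAMC1 and ITGA3 joined those in DKO (5 of 9, background 7.75%, higher 4.63%). Among the 6 libraries high in RN7SL1 edgeR called no gene at all for the drug in either genotype. Between genotypes it called 2 members in DMSO (LAMA3 and LAMB1) and 1 in EZ (LAMA3) there.

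**Figure D1:**
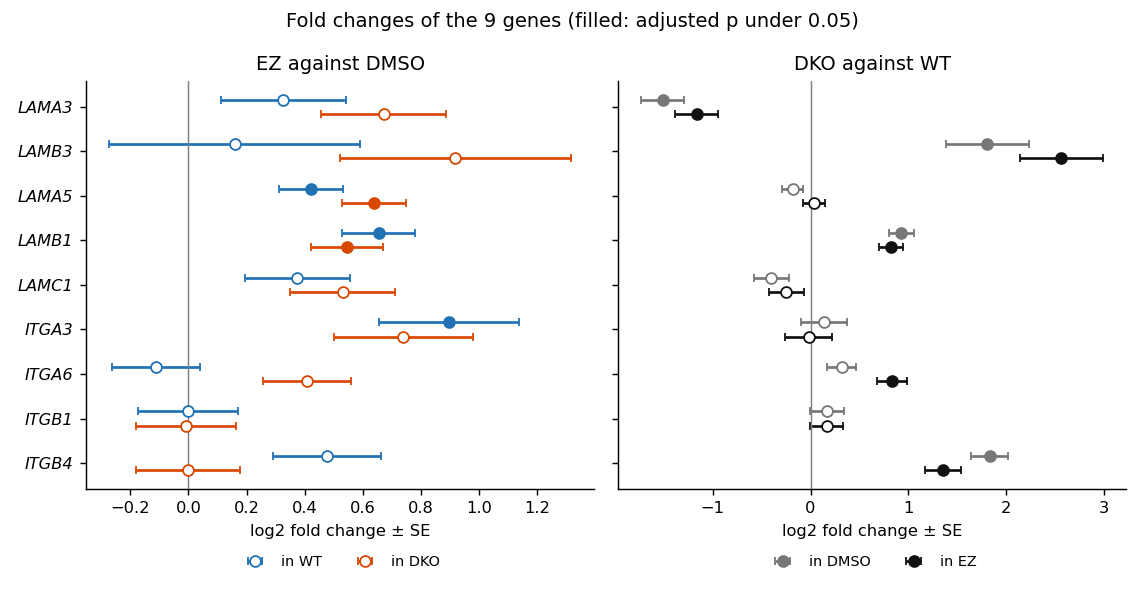
Log2 fold change ± SE (horizontal axis) of each of the 9 genes (vertical axis) for EZ against DMSO (left, by genotype) and DKO against WT (right, by treatment). Filled points passed the adjusted threshold of 0.05 in edgeR. On the right LAMA3 lies below 0 and LAMB3, LAMB1 and ITGB4 above it in both treatments, and on the left LAMA5 and LAMB1 are filled in both genotypes.

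Among the alpha chains, LAMA3 (chromosome 18, 23689443 to 23956222, GRCh38) was the most abundant laminin alpha transcript of all 4 groups and fell in the knockout in both treatments. It stood at 604, 630, 698 and 1158 CPM in WT DMSO and at 1377, 927, 853 and 717 CPM in WT EZ, listed here and below by replicate from 1 to 4. In DKO it stood at 238, 263, 259 and 325 CPM in DMSO and 387, 394, 413 and 534 CPM in EZ. Every DKO library lay below every WT library of either treatment. The log2 difference of DKO from WT was -1.51 ± 0.22 (SE) in DMSO, a 2.85-fold lower level (edgeR adjusted p = 0.000106), and -1.17 ± 0.22 in EZ (edgeR adjusted p = 0.00096). In a bulk sample, fewer cells that express a gene and less RNA per cell cannot be told apart. Among the 10 libraries low in RN7SL1 the difference was -1.45 in DMSO (edgeR adjusted p = 0.00515) and -0.74 in EZ (edgeR adjusted p = 0.0944). Among the 6 libraries high in RN7SL1 it was -1.24 and -1.81 (edgeR adjusted p = 0.017 and 0.00465).

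The drug's effect on LAMA3 missed the threshold in both genotypes. The log2 difference was 0.33 ± 0.21 in WT (edgeR adjusted p = 0.515), where the groups overlapped, and 0.67 ± 0.22 in DKO (edgeR adjusted p = 0.145), where every EZ library lay above every DMSO library. The DKO value passed when the DKO groups were fitted alone, at 0.65 (edgeR adjusted p = 0.032), and without WT DMSO replicate 4, at 0.66 (edgeR adjusted p = 0.0481). The highest LAMA3 levels of the 2 WT groups were those of the libraries low in MKI67, WT DMSO replicate 4 and WT EZ replicate 1. Without the 4 libraries low in MKI67, a fit added after the data were seen, LAMA3 rose in DKO by 0.80 (edgeR adjusted p = 0.0011, background 6.63%) and stood 0.39 higher in WT (edgeR adjusted p = 0.061, background 7.04%).

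LAMA5 (chromosome 20, 62307955 to 62367312), the alpha chain of the widely distributed laminins, rose with the drug in both genotypes and showed no call between them. It stood at 99.7, 116, 120.3 and 119.6 CPM in WT DMSO and 154, 153, 131 and 171 CPM in WT EZ. In DKO it stood at 98.0, 85.9, 114 and 103 CPM in DMSO and 139.6, 155, 163 and 166 CPM in EZ. Each EZ library was above each DMSO library of its genotype. The log2 increase was 0.42 ± 0.11 in WT (edgeR adjusted p = 0.0464) and 0.64 ± 0.11 in DKO (edgeR adjusted p = 0.00898). The WT call was lost without any 1 of 10 of the 16 libraries, with the highest edgeR adjusted p of 0.16 without WT EZ replicate 4. It was also lost with each other scaling (0.0554 to 0.105), with no filter (0.273) and in the WT groups alone (0.132), as edgeR adjusted p. The DKO call was kept without any single library. Among the libraries low in RN7SL1 the increases were 0.35 in WT (edgeR adjusted p = 0.201) and 0.61 in DKO, with 2 libraries a group (edgeR adjusted p = 0.265). DKO differed from WT by -0.18 ± 0.11 in DMSO and 0.03 ± 0.11 in EZ, with edgeR adjusted p of 0.279 and 0.878. ADRM1, on the opposite strand, overlaps 244 of the 14291 exon bases of LAMA5. No drug call was made for ADRM1, with edgeR adjusted p of 0.952 in WT and 0.928 in DKO.

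The within-library ratio of LAMA3 to LAMA5, each per kilobase of exon, sums up the change in alpha chains. On the log2 scale it was 2.68 ± 0.38 (SD, n = 4) in WT DMSO and 2.59 ± 0.45 in WT EZ, a 6.39-fold and 6.03-fold excess of LAMA3. In DKO it was 1.40 ± 0.23 in DMSO and 1.42 ± 0.16 in EZ, an excess of 2.63-fold and 2.68-fold. The lowest WT library, at 2.03, lay above the highest DKO library, at 1.64. Exon length was taken over all annotated exons of a gene. The size of the excess thus depends on which LAMA3 transcripts were present, which the counts do not separate.

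Of the beta chains, LAMB1 (chromosome 7, 107923799 to 108003255) was the only member raised by the drug in both genotypes and by the knockout in both treatments. It stood at 10.97, 13.8, 17.7 and 14.6 CPM in WT DMSO and 19.95, 23.8, 22.1 and 23.97 CPM in WT EZ. The DKO DMSO libraries stood at 26.9, 28.6, 28.5 and 24.8 CPM and those of DKO EZ at 36.95, 39.9, 41.4 and 40.5 CPM. The 4 groups formed 4 steps in that order, with no overlap between any of them. The drug raised LAMB1 by 0.65 ± 0.13 on the log2 scale in WT (edgeR adjusted p = 0.00871) and by 0.55 ± 0.13 in DKO (edgeR adjusted p = 0.0388). The knockout raised it by 0.93 ± 0.13 in DMSO (edgeR adjusted p = 5.95e-05) and by 0.82 ± 0.13 in EZ (edgeR adjusted p = 0.000175). The WT drug call and both genotype calls were kept without any single library, but the WT drug call was lost in the WT groups alone (edgeR adjusted p = 0.0846). Among the 6 libraries high in RN7SL1 the genotype differences were 1.37 in DMSO (edgeR adjusted p = 0.0321) and 0.96 in EZ (edgeR adjusted p = 0.0526). The DKO drug call was lost without any 1 of 11 of the 16 libraries, with the highest edgeR adjusted p of 0.0978 without DKO EZ replicate 3. It was also lost with upper-quartile scaling, on library totals and with no filter (edgeR adjusted p = 0.0571, 0.0873 and 0.18). Among the libraries low in RN7SL1 the drug's increase was 0.59 in WT (edgeR adjusted p = 0.0471) and 0.62 in DKO (edgeR adjusted p = 0.274). DLD, a mitochondrial dehydrogenase gene on the opposite strand, overlaps 70 of the 8140 exon bases of LAMB1. It moved the other way between genotypes, by -0.86 ± 0.13 in DMSO (edgeR adjusted p = 0.000228). Over all libraries DLD had 98933 counts and LAMB1 11308. With the strand setting of the counting not given, reads of DLD and of LAMB1 cannot be told apart where the genes overlap.

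LAMB3 (chromosome 1, 209614870 to 209652466), the beta chain of the basal cell laminin, was scarce in WT cells and higher in the knockout. It stood at 1.20, 0.735, 0.755 and 3.11 CPM in WT DMSO and at 2.66, 0.971, 1.43 and 1.47 CPM in WT EZ, on 13 to 75 counts a library. In DKO it stood at 6.07, 3.99, 3.79 and 6.44 CPM in DMSO and 12.9, 7.02, 6.91 and 11.6 CPM in EZ. Each DKO library was above each WT library. The log2 difference was 1.81 ± 0.42 in DMSO (edgeR adjusted p = 0.00588) and 2.57 ± 0.43 in EZ (edgeR adjusted p = 0.000389), 3.501-fold and 5.92-fold higher levels. Without WT DMSO replicate 4, the WT library highest in LAMB3 and one low in MKI67, the DMSO difference was 2.56 (edgeR adjusted p = 0.000123). Among the libraries low in RN7SL1 the DMSO difference was 1.80 (edgeR adjusted p = 0.0608) and the EZ difference 2.90 (edgeR adjusted p = 0.00712). Among the 6 libraries high in RN7SL1 both missed the threshold, at 2.09 (edgeR adjusted p = 0.128) and 1.92 (edgeR adjusted p = 0.0881). The drug's effect was 0.16 ± 0.43 in WT (edgeR adjusted p = 0.907) and 0.92 ± 0.40 in DKO (edgeR adjusted p = 0.317). With the replicate block the DKO value was 0.90 (edgeR adjusted p = 0.0475).

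LAMB3, another beta chain, stayed below LAMB1 per kilobase in every library. Per kilobase, the log2 ratio of LAMB3 to LAMB1 was -2.73 ± 1.04 (SD, n = 4) in WT cells with DMSO and -3.06 ± 0.70 with EZ. For DKO cells it was -1.66 ± 0.48 and -1.31 ± 0.52. The WT DMSO and DKO DMSO libraries overlapped on this ratio, through WT DMSO replicate 4 at -1.43. The EZ groups did not.

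LAMC1 (chromosome 1, 183023460 to 183145592) encodes the gamma chain shared by most laminins and was the most abundant laminin transcript per kilobase in every group. It stood at 513, 460.3, 434 and 711 CPM in WT DMSO and 919, 625, 556 and 647 CPM in WT EZ. The DKO DMSO libraries stood at 409.9, 389.6, 378 and 426 CPM and those of DKO EZ at 748, 478, 516 and 574 CPM. The drug groups overlapped in WT and not in DKO. The drug difference was 0.37 ± 0.18 in WT (edgeR adjusted p = 0.327) and 0.53 ± 0.18 in DKO (edgeR adjusted p = 0.174). With the replicate block the DKO value of 0.51 passed the threshold (edgeR adjusted p = 0.0429) and the WT value of 0.38 did not (edgeR adjusted p = 0.0991). DKO differed from WT by -0.40 ± 0.18 in DMSO and -0.25 ± 0.18 in EZ, with edgeR adjusted p of 0.137 and 0.384. In DMSO every DKO library lay below every WT library, and with a replicate block over all libraries the difference of -0.39 passed the threshold (edgeR adjusted p = 0.0444), although nothing in the labels ties a replicate number across genotypes.

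**Figure D2:**
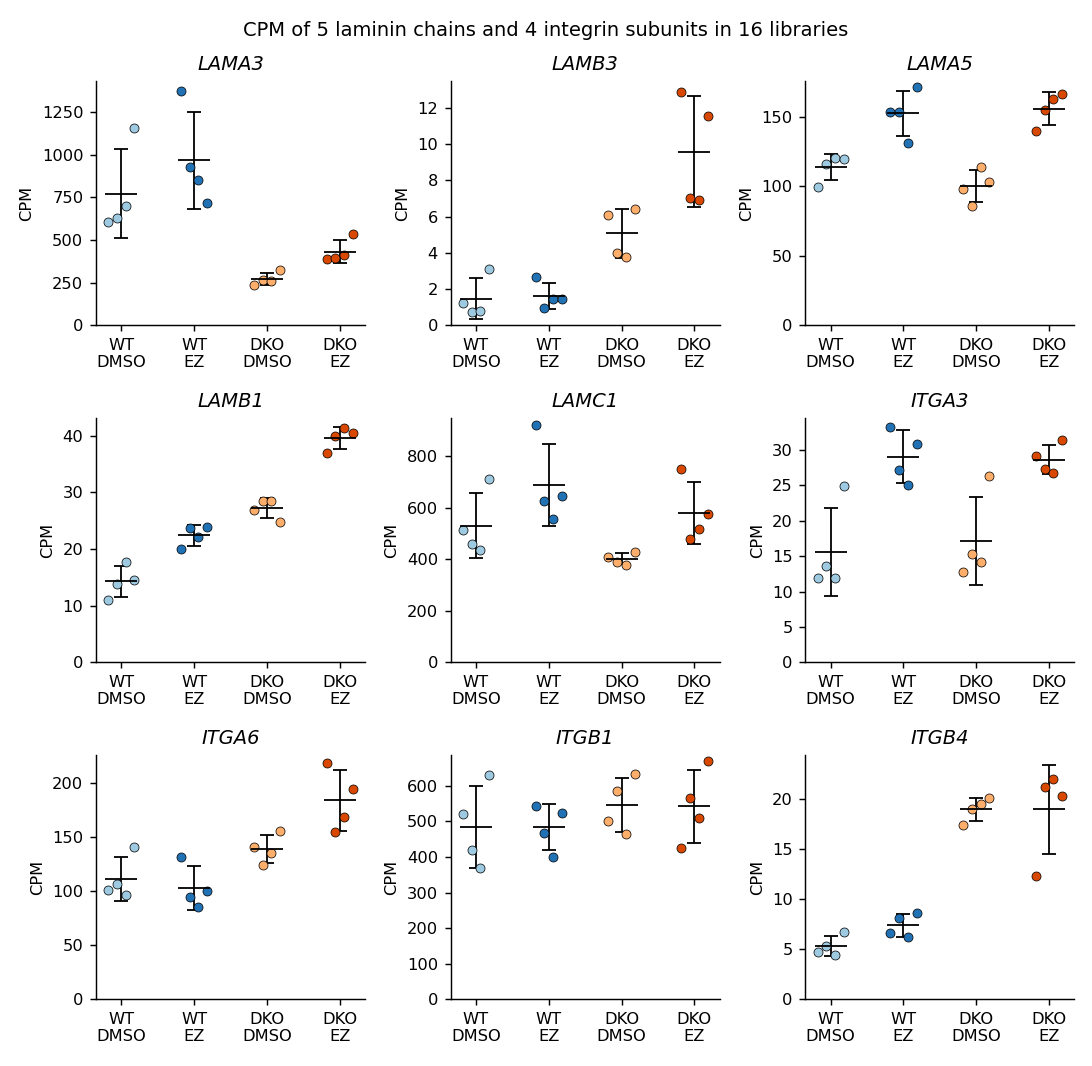
CPM (vertical axes, from 0) of the 9 genes in the 4 groups (horizontal axes). Points are single libraries, replicates 1 to 4 from left to right, and bars are the mean ± SD (n = 4). LAMA3 is lower and LAMB3, LAMB1 and ITGB4 are higher in both DKO groups, LAMA5 and LAMB1 are higher in both EZ groups, and ITGB1 overlaps in all 4.

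Of the alpha subunits of the receptors, ITGA3 (chromosome 17, 50055968 to 50090481), which pairs with ITGB1, was higher in all EZ than in all DMSO libraries of its genotype. It stood at 11.96, 13.6, 11.96 and 24.9 CPM in WT DMSO and 33.3, 27.1, 25.0 and 30.9 CPM in WT EZ. In DKO it stood at 12.7, 15.2, 14.2 and 26.4 CPM in DMSO and 29.2, 27.3, 26.8 and 31.4 CPM in EZ. In both DMSO groups replicate 4, a library low in MKI67, lay close to the EZ libraries. The log2 increase was 0.90 ± 0.24 in WT (edgeR adjusted p = 0.0492) and 0.74 ± 0.24 in DKO (edgeR adjusted p = 0.147). With the replicate block these were 0.95 (edgeR adjusted p = 0.00783) and 0.79 (edgeR adjusted p = 0.0259). Without the 4 libraries low in MKI67 they were 1.17 (edgeR adjusted p = 9.37e-05) and 1.01 (edgeR adjusted p = 0.000507). The WT call was lost without any 1 of 13 of the 16 libraries, with the highest edgeR adjusted p of 0.165 without WT DMSO replicate 2. It was also lost with DESeq2 size factors, with no filter and in the WT groups alone (edgeR adjusted p = 0.0576, 0.0983 and 0.107). Among the libraries low in RN7SL1 the WT value was 0.71 (edgeR adjusted p = 0.282). Between genotypes the difference was 0.14 ± 0.24 in DMSO and -0.02 ± 0.24 in EZ, with edgeR adjusted p of 0.751 and 0.967.

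ITGA6 (chromosome 2, 172427354 to 172506282), the alpha partner of both ITGB1 and ITGB4, was higher in the knockout under the drug. It stood at 101, 107, 97.0 and 141 CPM in WT DMSO and 132, 94.7, 85.7 and 100.3 CPM in WT EZ. In DKO it stood at 141, 124, 135 and 156 CPM in DMSO and 219, 155, 169 and 195 CPM in EZ. The EZ groups of the 2 genotypes did not overlap, and the DMSO groups did. The log2 difference of DKO from WT was 0.84 ± 0.15 in EZ (edgeR adjusted p = 0.00077) and 0.32 ± 0.15 in DMSO (edgeR adjusted p = 0.164). On unscaled library totals the DMSO difference was 0.54 and passed the threshold (edgeR adjusted p = 0.00385), as it did without the libraries low in MKI67, at 0.45 (edgeR adjusted p = 0.0101), and without WT DMSO replicate 4 alone, at 0.50 (edgeR adjusted p = 0.0311). The drug difference was -0.11 ± 0.15 in WT and 0.41 ± 0.15 in DKO, and neither passed (edgeR adjusted p = 0.797 and 0.221). The genotype difference in EZ was 1.03 among the libraries low in RN7SL1 (edgeR adjusted p = 0.00281). Among the 6 high in it the difference was 0.51, without a call (edgeR adjusted p = 0.239).

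ITGB1 (chromosome 10, 32900319 to 33005792), the beta subunit common to many integrins, was the most abundant of the 4 receptor genes and gave no call. Its mean was 485 ± 116 CPM (SD, n = 4) in WT cells with DMSO and 484.6 ± 64.8 with EZ, and for DKO cells 546 ± 76.2 and 543 ± 103, with single libraries from 368 to 671 CPM. All 4 groups overlapped. The 4 log2 differences ran from -0.01 to 0.17, each with an SE of 0.17. On unscaled library totals both genotype differences passed the threshold, at 0.39 in DMSO (edgeR adjusted p = 0.0361) and 0.41 in EZ (edgeR adjusted p = 0.0278).

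ITGB4 (chromosome 17, 75721328 to 75757818), the hemidesmosome subunit, was higher in every DKO than in every WT library. It stood at 4.70, 5.36, 4.47 and 6.73 CPM in WT DMSO and 6.59, 8.13, 6.26 and 8.62 CPM in WT EZ. In DKO it stood at 17.4, 19.0, 19.5 and 20.0 CPM in DMSO and 12.3, 21.1, 22.0 and 20.2 CPM in EZ. The log2 difference was 1.83 ± 0.19 in DMSO (edgeR adjusted p = 2.59e-06), a 3.56-fold higher level, and 1.35 ± 0.18 in EZ (edgeR adjusted p = 5.63e-05). Both calls were kept without any single library and among the libraries low in RN7SL1, at 1.89 and 1.53 (edgeR adjusted p = 0.00017 and 0.000669). The differences of 1.98 and 1.35 among the 6 libraries high in RN7SL1 did not pass (edgeR adjusted p = 0.0612 and 0.0924). GALK1, which lies on the opposite strand and shares no exon base with ITGB4, was also higher in DKO, by 0.68 ± 0.19 in DMSO (edgeR adjusted p = 0.0191) and 0.79 ± 0.19 in EZ (edgeR adjusted p = 0.00693). The strand setting of the counting is not given in the sources used here, so reads of unspliced GALK1 transcripts and of ITGB4 cannot be told apart. The drug difference of ITGB4 was 0.48 ± 0.19 in WT (edgeR adjusted p = 0.201) and -0.0015 ± 0.18 in DKO (edgeR adjusted p = 0.999). The WT value passed with the replicate block, at 0.48 (edgeR adjusted p = 0.0302), and without the libraries low in MKI67, at 0.68 (edgeR adjusted p = 0.0174).

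The balance of receptor subunits differed with both factors. Per kilobase, the log2 ratio of ITGB4 to ITGB1 was -6.66 ± 0.22 (SD, n = 4) in WT cells with DMSO and -6.20 ± 0.23 with EZ. For DKO cells it was -5.01 ± 0.18 and -5.03 ± 0.27, with no overlap between genotypes. ITGB1 thus stayed in large excess, with ITGB4 at 0.00986 of it in WT DMSO and 0.0311 in DKO DMSO. The log2 ratio of ITGA6 to ITGA3 was 3.48 ± 0.26 in WT DMSO and 2.40 ± 0.12 in WT EZ, which did not overlap. In DKO it was 3.66 ± 0.39 in DMSO and 3.26 ± 0.17 in EZ, and the DMSO and EZ libraries overlapped. This overlap came only through DKO DMSO replicate 4, a library low in MKI67, at 3.15.

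**Figure D3:**
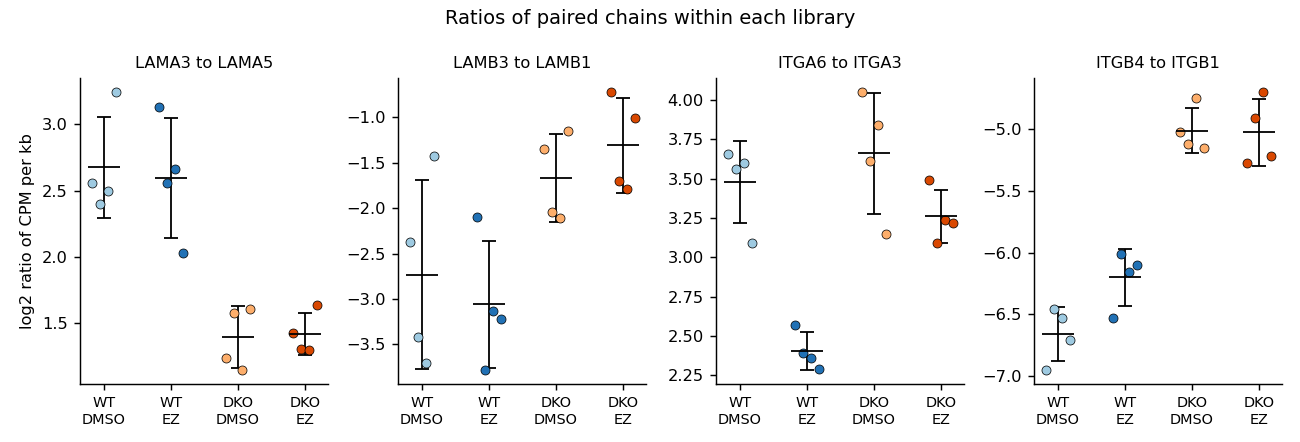
Log2 ratio of CPM per kilobase of exon between 2 chains or subunits in each library (vertical axes) by group (horizontal axes); points are single libraries and bars the mean ± SD (n = 4). The LAMA3 to LAMA5 ratio is lower and the ITGB4 to ITGB1 ratio higher in all DKO than in all WT libraries, and the ITGA6 to ITGA3 ratio is lowest in WT EZ.

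No member's response to the drug differed between genotypes by the test of that difference itself. The interaction, the drug's log2 effect in DKO less the one in WT, gave 0 calls among the 9 and 0% among all genes in edgeR, with 648 genes at an unadjusted p under 0.05 and 10 genes called by DESeq2. ITGA6, with an interaction of 0.52 ± 0.21 (edgeR adjusted p = 1), was the 1 member under 0.05 before adjustment. LAMB3 had the largest difference, 0.76 ± 0.59, and ITGB4 the lowest, -0.48 ± 0.26, each with an edgeR adjusted p of 1.

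Counted per kilobase of exon, the laminin chains differed widely in level within each class. The length covers all annotated exons of a gene, so these levels depend on which transcripts were present. In WT DMSO the alpha chains ran from LAMA3 at 52.6 ± 17.7 CPM per kilobase (SD, n = 4) and LAMA5 at 7.97 ± 0.67 down to LAMA1 at 0.474 ± 0.30, LAMA2 at 0.0344 and LAMA4 at 0.00855. LAMB2, at 42.1 ± 7.55, was the leading beta chain, followed by LAMB1 at 1.75 ± 0.34, LAMB3 at 0.310 ± 0.24 and LAMB4 at 0.121 ± 0.053. Among the gamma chains LAMC1, at 63.0 ± 14.9, was followed by LAMC3 at 0.655 ± 0.078. In WT DMSO the mean ± SD ranges of LAMC1, LAMA3 and LAMB2 overlapped, as did those of LAMB3 and LAMB4. These ranges describe the spread between libraries, whereas chains of the same library are paired. Within each WT DMSO library LAMC1 lay above LAMA3 and LAMB2 per kilobase. In DKO EZ the leading chains were LAMC1 at 68.9 ± 14.3, LAMB2 at 52.3 ± 5.61 and LAMA3 at 29.4 ± 4.69. Of the receptor genes ITGB1 led at 80.7 ± 19.2 in WT DMSO, above ITGA6 at 17.1 ± 3.11, ITGA3 at 1.59 ± 0.64 and ITGB4 at 0.786 ± 0.15. In DKO EZ ITGA3, at 2.92 ± 0.21, and ITGB4, at 2.80 ± 0.66, did not differ beyond their spread.

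**Figure D4:**
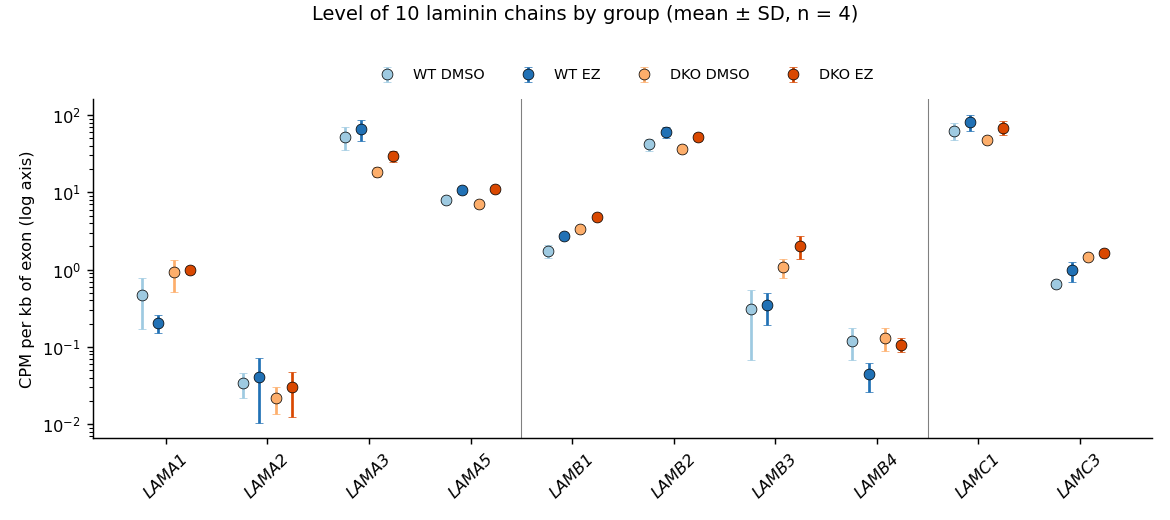
Mean CPM per kilobase of exon ± SD (vertical log axis, n = 4) of 10 laminin chains, alpha, beta and gamma from left to right, in the 4 groups. LAMA4 is left out because some of its libraries were at 0 counts. LAMA3, LAMB2 and LAMC1 lie highest in their classes in every group, and LAMA2, at 0.0344 in WT DMSO, is the lowest chain shown.

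Among the 7 laminin chains outside the list, 6 were tested and none was called for the drug in either genotype. The drug called 3.32% of all tested genes in WT and 1.48% in DKO. LAMB2 stood 0.52 ± 0.15 higher with EZ in WT and 0.51 ± 0.15 in DKO on the log2 scale (edgeR adjusted p = 0.0624 and 0.0979). The knockout raised 1 of the 6 in DMSO, where 8.91% of all tested genes were higher. This was LAMC3, by 1.17 ± 0.18 (edgeR adjusted p = 0.000215). In EZ the knockout raised 4 of the 6, where 9.29% of all tested genes were higher. These included LAMA1, by 2.28 ± 0.50 (3.24 to 15.8 CPM), LAMB4, by 1.22 ± 0.42, and LAMC3, by 0.76 ± 0.18 (edgeR adjusted p = 0.0039, 0.049 and 0.00593). LAMB4 rested on 3 to 48 counts a library. LAMB4 was lost without any 1 of 5 libraries, and among the libraries low in RN7SL1 the calls of LAMA1 and LAMC3 were kept and that of LAMB4 was not. LAMA2 differed by -0.64 ± 0.59 in DMSO and -0.50 ± 0.59 in EZ, without a call, and LAMA4 was too scarce to be tested.

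The 21 other integrin subunits, of which 18 were tested, gave no call for the drug in either genotype (3.32% of all tested genes in WT and 1.48% in DKO). In DKO 6 were higher and 1 lower than in WT in DMSO, and 7 higher and 1 lower in EZ. Over all tested genes 8.91% were higher and 9.7% lower in DMSO, and 9.29% and 11.4% in EZ. ITGB8, a subunit that activates latent TGF-beta, rose by 2.93 ± 0.37 in DMSO and 2.43 ± 0.35 in EZ, with edgeR adjusted p of 2.46e-05 and 0.000105. ITGA11 and ITGA2B rose by 1.38 ± 0.42 and 1.33 ± 0.43 in DMSO, and ITGA11 and ITGA9 by 1.73 ± 0.41 and 1.47 ± 0.42 in EZ. The DMSO calls of ITGA11 and ITGA2B were lost without any 1 of 4 and of 6 libraries. ITGA2, a collagen and laminin receptor subunit, fell in DKO by 0.83 ± 0.13 in DMSO and by 1.07 ± 0.13 in EZ, with edgeR adjusted p of 0.000246 and 1.9e-05. Of these higher calls, 2 of 6 in DMSO and 2 of 7 in EZ were made again among the libraries low in RN7SL1, as was ITGA2 in both.

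Of 7 other laminin-binding proteins, the drug raised SDC1 and BCAM in WT (2.25% of all tested genes) and SDC1 and SDC2 in DKO (1.03%). BCAM, a receptor of the LAMA5 chain, rose by 1.00 ± 0.19 in WT (21.4 to 42.9 CPM, edgeR adjusted p = 0.00863). SDC1, a syndecan, rose by 1.10 ± 0.20 in WT and 1.06 ± 0.20 in DKO (edgeR adjusted p = 0.00497 and 0.0118). SDC2 rose by 1.21 ± 0.29 in DKO, with an edgeR adjusted p of 0.0453. Leaving out any 1 of 13 libraries ended this call (up to 0.145, without DKO DMSO replicate 2), and 2 libraries each could end those of SDC1 in DKO. Between genotypes in DMSO, SDC1 was higher by 0.60 ± 0.19 and SDC2 lower by 1.06 ± 0.29 on the log2 scale in DKO, calls that 5 and 3 single libraries could end. In EZ none of the 7 was called. Between genotypes 18.6% of all tested genes were called in DMSO and 20.7% in EZ.

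Of 7 hemidesmosome and tetraspanin partners, CD82 rose with the drug in WT (2.25% of all tested genes did), by 0.89 ± 0.20 (edgeR adjusted p = 0.0212). This call was lost without any 1 of 4 libraries. With the replicate block 4 of the 7 were higher in WT, where 7.67% of all tested genes were. In DKO the tetraspanin CD81, a partner of ITGA3, was lower by 0.46 ± 0.12 in DMSO and by 0.60 ± 0.12 in EZ. DST, which links ITGB4 to keratin filaments in epithelia, was higher in DKO by 0.78 ± 0.12 in EZ. Of all tested genes, 9.7% were lower in DKO in DMSO and 11.4% in EZ, and 9.29% were higher in EZ. The CD81 calls were not made among the libraries low in RN7SL1.

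Of 18 other basement membrane components, 14 were tested. The drug raised COL18A1, FRAS1 and COL4A5 and lowered COL7A1 in WT (2.25% and 1.07% of all tested genes). In DKO it raised COL18A1 and FRAS1 (1.03%), and 6 were higher with the replicate block (4.63%). FRAS1, an extracellular matrix protein of epithelial basement membranes, rose by 1.18 ± 0.18 in WT and 0.98 ± 0.18 in DKO (edgeR adjusted p = 0.0017 and 0.0123). COL18A1 rose by 0.90 ± 0.15 and 0.94 ± 0.15 (edgeR adjusted p = 0.0031 and 0.00548). The knockout lowered FRAS1, COL18A1 and COL4A5 in both treatments, FRAS1 by 0.81 ± 0.18 in DMSO and 1.02 ± 0.18 in EZ. The COL18A1 calls between genotypes were lost without any 1 of 7 libraries in DMSO and of 10 in EZ. The knockout raised 4 components in DMSO and 6 in EZ. Over all tested genes 8.91% were higher and 9.7% lower in DMSO, and 9.29% and 11.4% in EZ. NTN4, a netrin that binds laminin gamma chains, rose by 2.08 ± 0.54 in DMSO and 3.09 ± 0.56 in EZ, with edgeR adjusted p of 0.0132 and 0.000963. Without WT DMSO replicate 4 its DMSO difference was 3.32, and the DMSO call was lost with no filter (edgeR adjusted p = 0.061) and in the DMSO groups alone (edgeR adjusted p = 0.0686). COL7A1, the anchoring fibril collagen, was higher in DKO by 0.79 ± 0.20 and 1.10 ± 0.20. The libraries low in RN7SL1 alone gave 1 component higher and 1 lower in DMSO, and 4 higher and 1 lower in EZ.

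Of 27 integrin adaptors and focal adhesion genes, PARVA showed the largest difference between genotypes. PARVA encodes alpha-parvin, which links integrin-linked kinase to actin, and averaged 31.5 CPM in WT DMSO and 2.82 in DKO DMSO, a log2 difference of -3.48 ± 0.14 (edgeR adjusted p = 1.48e-11). In EZ it averaged 54.7 and 3.86 CPM, a difference of -3.82 ± 0.14 (edgeR adjusted p = 7.04e-12), and the drug raised it by 0.80 ± 0.12 in WT (edgeR adjusted p = 0.0015). In all, 4 of the 27 were higher and 5 lower in DKO in DMSO, and 6 higher and 4 lower in EZ. Over all tested genes 8.91% were higher and 9.7% lower in DMSO, and 9.29% and 11.4% in EZ. KANK1, a talin-binding protein, rose by 1.98 ± 0.15 in DMSO and 1.89 ± 0.15 in EZ, and TNS3, a tensin, by 1.59 ± 0.32 and 2.25 ± 0.34. The drug lowered TNS3 by 1.75 ± 0.34 and TNS1 by 0.99 ± 0.25 on the log2 scale in WT (edgeR adjusted p = 0.00856 and 0.0354), the TNS1 call being lost without any 1 of 6 libraries. With the replicate block 6 adaptors were higher in WT, where 7.67% of all tested genes were. Of 10 laminin- and matrix-processing proteases, 4 were tested. TLL2 and BMP1 were higher in DKO in DMSO (8.91% of all tested genes were), by 0.93 ± 0.32 and 0.63 ± 0.15 (edgeR adjusted p = 0.0494 and 0.00771). Any 1 of 10 libraries left out ended the TLL2 call. Few of the calls on these lists were also made among the 6 libraries high in RN7SL1: none for the drug, and between genotypes LAMA1, ITGA2, DST, NTN4, COL7A1, FRAS1, KANK1, TNS1, PARVA and PARVB in EZ, and NTN4, KANK1 and PARVA in DMSO.

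**Figure D5:**
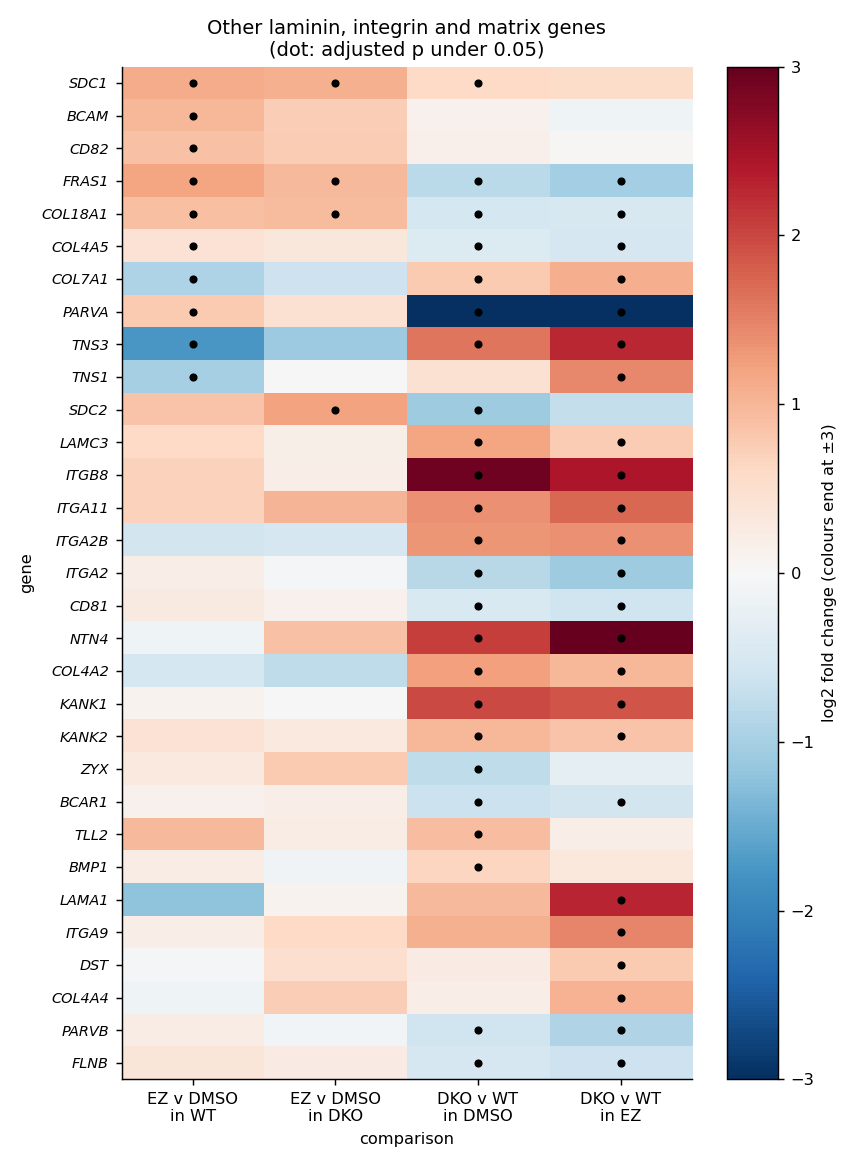
Log2 fold change (colour, ending at ±3) of the named laminin, integrin, basement membrane and adaptor genes outside the list of 9 (rows) in 4 comparisons (columns). Dots mark an edgeR adjusted p under 0.05. PARVA, at -3.48 and -3.82, is the darkest blue in both genotype columns, and FRAS1 and COL18A1 are dotted in all 4 columns.

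To place the members among other genes, the genes nearest in pattern were taken as those with the smallest root mean square difference of centred mean log2 CPM over the 4 groups, a description on 4 points. SLC4A10 was nearest to LAMB1 (0.0034 log2 units). SP100 and PLCXD1 were nearest to LAMA3 (0.054 and 0.076), KIT and CCM2L to LAMB3 (0.079 and 0.11), and RHOBTB1 and TAFA4 to ITGB4 (0.027 and 0.041). FBXL5 and ST3GAL1 were nearest to LAMA5 (0.020 and 0.022), SEMA3F and KCNQ1 to ITGA3 (0.032 and 0.036) and CD160 and FER1L5 to ITGA6 (0.011 and 0.021). Several of these genes were scarce, so their patterns rest on low levels. Mean log2 CPM in WT DMSO was -3.28 for KIT, -1.85 for CCM2L, -1.06 for RHOBTB1 and -0.488 for FER1L5.

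Scaling moved the balance of higher and lower calls over all genes. Of all calls between genotypes in DMSO, 47.9% were higher in DKO with TMM scaling and 76.3% on library totals. In EZ these shares were 45% and 77%, and with upper-quartile scaling they were 56.2% in DMSO and 58.1% in EZ. Of the drug's calls in WT, 67.8% were higher with TMM scaling, 56.1% with upper-quartile scaling and 55.3% on library totals. On library totals the median of all genes moved from -0.06 to 0.14 in DMSO and from -0.013 to 0.23 in EZ, and LAMA3 still differed by -1.29 and -0.91 (edgeR adjusted p = 6.27e-05 and 0.00117).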

How the data were processed

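Total RNA, depleted of ribosomal RNA, was sequenced per the labels' protocols. The authors deposited raw counts per Ensembl gene, and STAR 2.7.3a and GRCh38 are named in the submitters' processing notes. Not given in the sources used here are the counting tool, its strand setting and the annotation release. Groups and replicate numbers come from the sample titles. The members and the gene lists were chosen with earlier results of these data known. Symbols matched 60357 of 60676 identifiers, and positions and exon lengths are from GENCODE v29. Counts were fitted with edgeR 4.0.16 in R 4.3.3: filterByExpr (minimum count 10, total 15), TMM scaling, 1 mean per group over all 16 libraries, quasi-likelihood F-tests and Benjamini-Hochberg adjustment over 21810 genes at 0.05. The SE is the log2 fold change divided by the root of F. Ratios used a prior count of 0.5. The code was tested on simulated data. Replicates differed by more than sampling noise. The drug was also fitted with a block per genotype and replicate number, since same-numbered libraries deviated together. These deviations correlated at 0.326 to 0.625 in WT and 0.403 to 0.664 in DKO. WT DMSO replicate 2, however, correlated best with WT EZ replicate 3. The alternatives were DESeq2 1.42.0, other scalings, no filter, blocks, 2 groups alone and each library left out. Named list genes were, per list and comparison, up to 3 highest and 3 lowest called with at least 1 CPM in the higher group, plus the laminin chains. Some genes are not reported here. The fits on RN7SL1 (as a term, the low set alone, the high set alone) and MKI67 were added after the data were seen.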

Additional observations from a re-analysis of the deposited data

Results flagged for a closer look

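In 2 of the 52 groups of 4 libraries tested, 1 library lay far from the other 3, by Dixon's criterion on the gap over the range. Chance gives about 1 in 20 such groups. Both were WT DMSO replicate 4, which is low in MKI67. LAMA3 stood at 1158 CPM there and at 604 to 698 CPM in the other 3 libraries, with the gap 0.83 of the range. ITGA3 stood at 24.9 CPM there and at 11.96 to 13.6 CPM in the other 3, with the gap 0.875 of the range.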

How the results depend on the processing

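The genotype calls of the 9 genes kept their direction under every alternative run. They lost significance in the fits on 1 RN7SL1 set. Among the 10 libraries low in RN7SL1 these were LAMB3 in DMSO and LAMA3 in EZ. Among the 6 libraries high in it, where each WT group has 1 library, they were LAMB3 and ITGB4 in both treatments and LAMB1 and ITGA6 in EZ. In that set 386 genes and 2 members were called in DMSO and 869 genes and 1 member in EZ, and the drug called 0 genes and 0 members in either genotype. Values without a call that changed sign there were the drug difference of ITGA6 (0.36) and ITGB1 (0.035) in WT, the genotype difference in EZ of ITGB1 (-0.13) and LAMA5 (-0.052), and the interactions of LAMA3 (-0.57), LAMB3 (-0.17) and LAMC1 (-0.25). The drug calls moved more. In WT, the 724 genes and 3 members called became 1239 genes with DESeq2, 1724 with a replicate block over all libraries, 2641 with the replicate block within genotype, 1551 without the libraries low in MKI67, 436 genes and 1 member with no filter, 294 and 0 in the 2 groups alone, 371 and 1 in the libraries low in RN7SL1, and 1 member with DESeq2 size factors. In DKO, the 322 genes and 2 members became 806 genes with DESeq2, 519 with the RN7SL1 set as a term, 1104 and 4 with a replicate block over all libraries, 1691 and 5 with the replicate block within genotype, 1461 and 4 without the libraries low in MKI67, 167 and 1 with no filter, 13 and 0 in the libraries low in RN7SL1, and 1 member with upper-quartile scaling or library totals. Genotype calls became 2548 in DMSO and 2539 in EZ in the libraries low in RN7SL1. Interaction calls became 10 with DESeq2, 1 and 39 with the 2 replicate blocks and 5 without the libraries low in MKI67. With 1 library left out, the drug called 304 (without WT DMSO replicate 2) to 1051 genes (without WT DMSO replicate 4) and 1 to 3 members in WT, and 73 (without DKO DMSO replicate 2) to 451 genes (without WT DMSO replicate 4) and 1 to 4 members in DKO. Across genotypes nothing in the labels ties the replicate numbers. Same-numbered libraries correlated there at -0.132 to 0.674, with replicate 4 at 0.403 to 0.674. The replicate block over all libraries lost none of the members' genotype calls.

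On library totals, mean levels moved to 20.3 (WT EZ), 29.8 (DKO DMSO) and 42.3 CPM (DKO EZ) for LAMB1, 438.5 for LAMC1 and 20.7 for ITGB4 in DKO DMSO. The other values that changed sign were all without a call too. On library totals they were 0.23 for ITGA3 and 0.014 for LAMC1 between genotypes in EZ, 0.021 for LAMA5 in DMSO and 0.015 for the ITGB1 interaction. For ITGA3 between genotypes in EZ they were 0.021 with the RN7SL1 term, 0.032 with no filter, 0.14 in the libraries low in RN7SL1, 0.10 with upper-quartile scaling and 0.052 without those low in MKI67. For the ITGB1 interaction they were 0.0064 with no filter, 0.15 in the libraries low in RN7SL1, 0.021 with upper-quartile scaling and 0.036 without those low in MKI67. In the libraries low in RN7SL1 the drug difference was 0.11 for ITGB1 and 0.10 for ITGB4 in DKO, and -0.0035 for LAMA3 and -0.24 for LAMB3 in WT, and the LAMB1 interaction was 0.029. Without those low in MKI67 the drug difference was 0.15 for ITGB1 and 0.17 for ITGB4 in DKO and 0.11 for ITGB1 in WT, and the LAMC1 interaction was -0.0082. The ITGB1 drug difference in WT was 0.017 with the replicate block over all libraries and 0.019 with that within genotype. With 1 library left out, the drug difference ranged from -0.15 to 0.89 for LAMB3, -0.24 to 0.053 for ITGA6 and -0.11 to 0.18 for ITGB1 in WT, and from -0.12 to 0.083 for ITGB1 and -0.091 to 0.15 for ITGB4 in DKO. The genotype difference ranged from -0.066 to 0.50 for ITGA3 in DMSO, and from -0.040 to 0.13 for LAMA5 and -0.094 to 0.085 for ITGA3 in EZ. The interaction ranged from -0.056 to 0.30 for LAMC1, -0.51 to 0.12 for ITGA3 and -0.19 to 0.094 for ITGB1. The causes were not tested. LAMB3 rests on the fewest counts of the 9 genes, which limits its precision.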
